A study of Equus caballus with 16 samples.

Results

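The DLK1-DIO3 cluster is an imprinted locus that holds one of the largest groups of miRNA genes known in placental mammals. Its members were chosen by name, as the miRNAs whose number belongs to the locus and that were read in 1 library or more, and 42 of the 324 miRNAs with a read met this rule. A further 9 names that match the rule had no read in any library. The rule used names only, and the positions of the hairpins in the horse genome were not used here. The members were followed in extracellular vesicles (EVs) isolated from the follicular fluid (FF) of mares of 1 breed. The small-RNA libraries came from 4 seasons, 1 of them anovulatory (non-breeding) and the others ovulatory (breeding). The question put to these data was whether the cargo of FF-EVs changes with the season, and here how the cluster takes part in it.

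The groups were the spring anovulatory season (SAN, sampled in March), the spring ovulatory season (SOV, April to May), summer (SUM, June to July) and the fall ovulatory season (FOV, September), with 4 libraries each. All mares were 8 to 14 years old, and in every season a new follicular wave had been started by ablating the follicles present, after which the dominant follicle was aspirated from sedated mares at 30 to 35 mm. Each library was made from the pooled fluids of 2 to 3 mares, and some mares were sampled in more than 1 season, so p values measure the spread between pools and treat linked libraries as independent. Season and sampling date coincide, so the season and anything else that changed with the date cannot be told apart. In RNA pooled over vesicles, more vesicles from one cell type and more of a miRNA in each vesicle also cannot be told apart.

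In mammals the miRNAs of this locus are processed from long noncoding transcripts of the maternally inherited chromosome, on which the protein-coding genes DLK1, RTL1 and DIO3 are silent. One group of hairpins lies in or near the transcript antisense to RTL1, and in mouse placenta miR-127 and its neighbours there direct cleavage of the Rtl1 messenger RNA. The larger group follows downstream, and the locus as a whole is known for high expression in placenta, embryo and brain. The 8 detected members named miR-127, miR-136, miR-337-5p, miR-370, miR-431, miR-432, miR-433 and miR-493b are called the miR-127/miR-136 part below, and the other 34 the rest of the cluster.

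Mature sequences were available for 38 of the 42 members, and the sequences of those whose level carries the seasonal comparisons are shown 5′ to 3′ as DNA letters. Capitals mark the seed, bases 2 to 8, which pairs with target messenger RNAs.
miR-409-3p: gAATGTTGctcggtgaacccct
miR-543: aAACATTCgcggtgcacttctt
miR-495: aAACAAACatggtgcacttctt
miR-323-3p: cACATTACacggtcgacctct
miR-485-5p: aGAGGCTGgccgtgatgaattc
miR-485-3p: gTCATACAcggctctcctctct
miR-3958: cAGATATTgcacggttgatctctt
miR-127: tCGGATCCgtctgagcttggct
miR-432: tCTTGGAGtaggtcattgggtgg
miR-493b: tGAAGGTCttccgtgtgccagg
The first 7 belong to the rest of the cluster and the last 3 to the miR-127/miR-136 part. None of the 38 members shared its seed with another member. MiR-543 and miR-495 were nevertheless alike over most of their length, with 4 differing positions of 22.

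A second shared feature lay outside the seed. The 6 letters ACCTCT, chosen after the sequences were seen and searched on the given strand only, stood at or near the 3′ end of 5 members, in which capitals mark them.
miR-323-3p: cacattacacggtcgACCTCT
miR-656: aatattatacagtcaACCTCT
miR-655: ataatacatggttaACCTCTtt
miR-329a: aacacacctagttaACCTCTtt
miR-329b: aacgaacctggttaACCTCTttt
All 5 came from the rest of the cluster (16.1% of its 31 members with a sequence), against 0 of 7 in the miR-127/miR-136 part and 2 of the 245 other miRNAs with a sequence (0.816%). MiR-329a and miR-329b differed at 3 positions, as did miR-487a and miR-487b, and miR-376a and miR-376c at 2, so reads of these pairs may have been split between them in counting, and their levels are uncertain.

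The cluster was a small constituent of FF-EVs. Levels are given as TMM-adjusted CPM, that is the reads of a miRNA scaled to a common library total after a correction for library composition. The members held 14996 reads, 1.52% of all reads assigned to miRNAs, and their share of a library ranged from 0.463% to 2.48%. Libraries held 27131 to 112146 miRNA reads, so that 1 read stood for 7.91 to 35.6 CPM, and a member with few reads moved in large steps. A library detected 20 to 38 members, 13 members had a read in all 16 libraries, and 8 members had fewer than 10 reads in all.

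MiR-409-3p (3953 reads), miR-127 (3333) and miR-543 (1296) together gave 57.2% of the reads of the cluster. The next 9 by reads were miR-381 (927), miR-323-3p (687), miR-379 (575), miR-370 (438), miR-432 (392), miR-494 (365), miR-485-5p (352), miR-3958 (350) and miR-411 (343). Markers of the locus were thus present: miR-409-3p, miR-323-3p and miR-543 were read in all 16 libraries and miR-493b in 13. Of a list of 5 granulosa and follicle miRNAs, 4 were measured, and miR-378, the most abundant of them, lay between 2718 and 12709 CPM in every library. MiR-503 and miR-383 of that list did not exceed 30.3 and 90.8 CPM and were at 0 in many libraries. MiR-224 ranged from 0 (SUM_1 and FOV_4) to 1667 CPM (SAN_4) and did not follow miR-378.

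The summed level of the members was lowest in SOV and highest in SUM. The spring means were 10604 ± 2749 CPM for SAN and 7392 ± 2434 CPM for SOV (SD, n = 4 each). Summer reached 19745 ± 3193 CPM (SD, n = 4) and fall 17323 ± 8217 CPM (SD, n = 3). FOV_1, which the study left out after a principal component analysis and which enters no mean or test here, stood at 13301 CPM. The 4 SUM libraries, at 15280 to 22848 CPM, lay above all SAN libraries (6824 to 13170 CPM) and all SOV libraries (5000 to 9759 CPM), while SAN and SOV overlapped. FOV was uneven, since FOV_2 and FOV_3 had 12818 and 12343 CPM and FOV_4 had 26808, and without FOV_4 the FOV mean fell to 12581 CPM. Being a sum over members, this level was given no test. Without miR-409-3p the spring means were 9117 CPM (SAN) and 6486 CPM (SOV) and the later ones 12967 CPM (SUM) and 12966 CPM (FOV), so the distance from SOV to SUM narrowed but kept its direction.

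**Figure D1:**
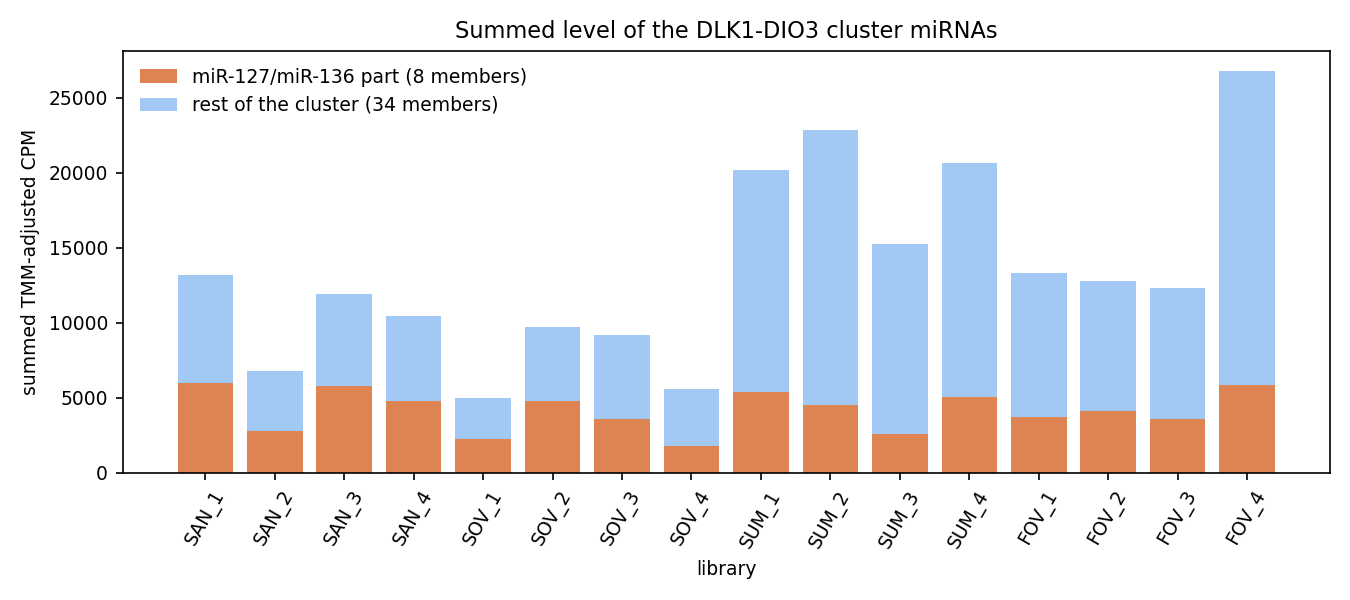
Summed TMM-adjusted CPM of the 42 members (vertical axis) in each of the 16 libraries (horizontal axis), stacked as the miR-127/miR-136 part and the rest of the cluster. The 4 SUM libraries and FOV_4 stand highest, at 15280 to 26808 CPM. In summed level the difference from the spring libraries lies in the rest of the cluster, and the sum of the other part is mostly miR-127.

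In summed level, the difference between spring and the later seasons lay in the rest of the cluster, here described without a test. Summed over its members, the rest stood at 4030 to 7175 CPM in SAN and 2775 to 5629 CPM in SOV, against 12716 to 18308 CPM in SUM and 8719 to 20921 CPM in FOV, so the spring libraries did not overlap with those of summer and fall. The miR-127/miR-136 part overlapped across all seasons, with spring libraries at 2794 to 5995 CPM (SAN) and 1763 to 4781 CPM (SOV), summer at 2564 to 5364 CPM and fall at 3616 to 5887 CPM. Most of that sum was miR-127. Its means were 4098 (SAN), 2457 (SOV), 3090 (SUM) and 3502 CPM (FOV), against 4847, 3085, 4379 and 4534 CPM for the whole part. The sum therefore says little about the other members of the part. The share of the miR-127/miR-136 part in the cluster was 45.2% ± 3.11 in SAN and 40.9% ± 7.58 in SOV, but 21.9% ± 4.41 in summer (SD, n = 4 per season) and 27.7% ± 5.19 in fall (SD, n = 3).

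Single spring libraries ranged from 40.9% to 48.4% (SAN) and from 31.4% to 49.0% (SOV). Summer libraries ranged from 16.8% to 26.5% and fall libraries from 21.96% to 32.0%, with FOV_1 at 28.2%. SUM did not overlap with either spring season, whereas the highest FOV library, FOV_2, lay just above the lowest SOV library, SOV_4. Exact 95% binomial intervals, which cover counting error only, ran from 25.9% to 37.4% in SOV_4 and from 28.2% to 36.0% in FOV_2. Shares within a library do not depend on how libraries were scaled to each other. They did depend on 2 members: without miR-127 and miR-409-3p, the most abundant of each part, the share was 14.9% (SAN), 15.1% (SOV), 12.6% (SUM) and 11.3% (FOV).

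**Figure D2:**
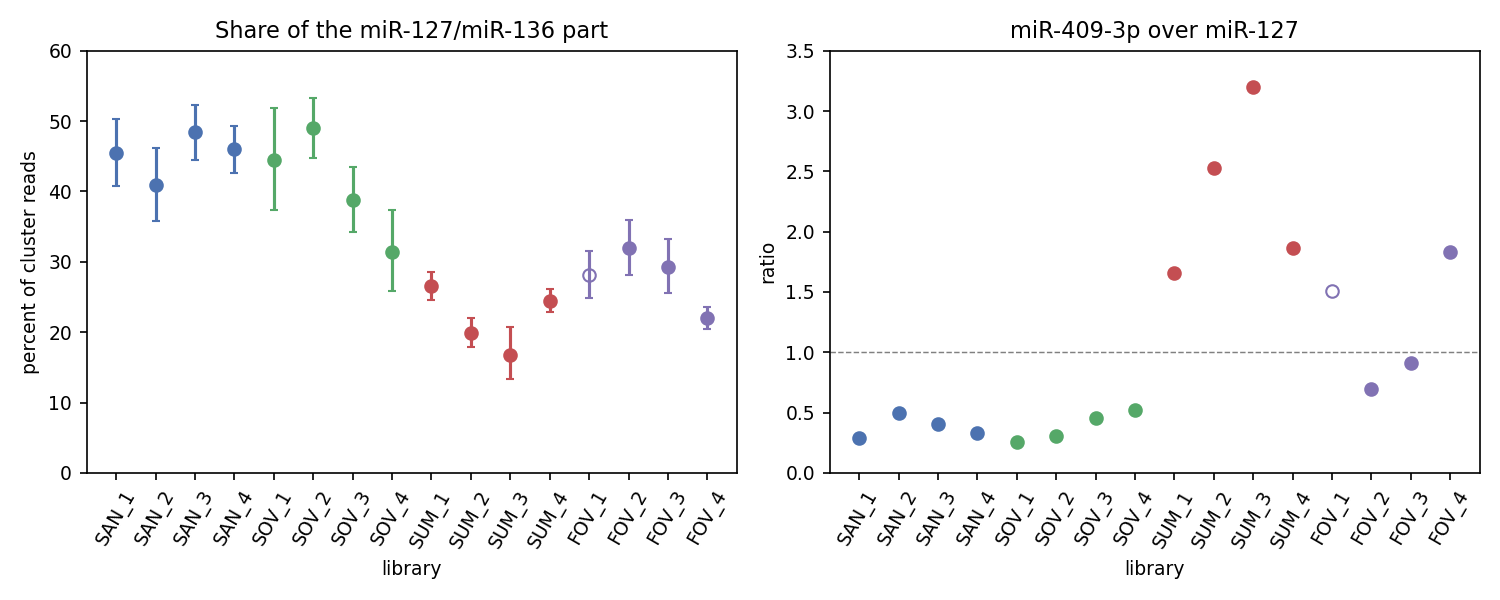
Share of the miR-127/miR-136 part in the summed CPM of the cluster and the ratio of miR-409-3p to miR-127 (vertical axes, in percent of cluster reads and as a ratio) in each of the 16 libraries, coloured by season, with FOV_1 hollow and exact 95% binomial intervals as bars on the share. SAN and SOV libraries sit at shares of 31.4% to 49.0% and ratios up to 0.522, and SUM libraries at 16.8% to 26.5% and 1.65 to 3.20.

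The ratio of these 2 miRNAs also differed between spring and summer. MiR-409-3p had 0.287 to 0.5 times the level of miR-127 in SAN and 0.257 to 0.522 times in SOV, against 1.65 to 3.20 times in SUM. In FOV the ratio was 0.698, 0.913 and 1.83 in FOV_2, FOV_3 and FOV_4, and 1.51 in FOV_1. Thus miR-127 was the leading member in all 8 spring libraries and miR-409-3p in all 4 SUM libraries.

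Seasons were tested miRNA by miRNA with limma after a log2(CPM + 1) transformation. Tested were 282 miRNAs whose mean passed 10 CPM in 1 season or more, of which 38 were members, 7 of the miR-127/miR-136 part and 31 of the rest. Called means a Benjamini-Hochberg adjusted p under 0.05 over all 282 and a fold change of at least 2. Log2 FC is the first season minus the second, with its SE. The filter on low values left out miR-337-5p, miR-377, miR-323-5p and miR-496. MiR-496, at a highest season mean of 7.44 CPM, was the member nearest below this limit, and miR-431, at 10.8 CPM, the nearest above it. Comparisons that share a season share its libraries, so the results against SUM are not independent of each other.

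In SOV vs. SUM, 8 of 38 members were called (21.1%), against 17.7% of all miRNAs tested. Calls higher in SUM numbered 7 of the members (18.4%), with 12.1% over all miRNAs, and 1 member was higher in SOV, with 5.67% over all. The 7 members higher in SUM were miR-409-3p, miR-323-3p, miR-543, miR-485-5p, miR-485-3p, miR-495 and miR-3958, and every one belonged to the rest of the cluster. The one higher in SOV, miR-493b, was the only call among the 7 tested members of the miR-127/miR-136 part, and whether the parts differ in their share of calls was not tested. Libraries of the 2 seasons did not overlap for 9 members (23.7%), against 21.6% of all miRNAs. The median log2 FC was -1.30 over the members and -0.51 over all 282. The members' median moved with single SUM libraries, to -0.84 without SUM_1, -2.10 without SUM_3 and -0.19 without both SUM_1 and SUM_4 (0.06 over all).

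In SAN vs. SUM, 5 of 38 members were called (13.2%), against 9.57% of all miRNAs. MiR-409-3p, miR-323-3p, miR-485-5p and miR-432 were higher in SUM (4.26% of all miRNAs were), and miR-493b was higher in SAN (5.32% of all were). Without overlap of libraries were 7 members (18.4%), against 17.0% of all miRNAs. The median log2 FC was -0.77 over the members and -0.14 over all. It was -0.31 over the members without SUM_1, -0.31 without SUM_4 and -1.36 without SUM_3, and turned to 0.15 without both SUM_1 and SUM_4 (0.40 over all).

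MiR-409-3p, the 3′ arm of its hairpin, was the most abundant member. Its level was 1484, 1159, 1908 and 1398 CPM in SAN_1 to SAN_4 and 471, 1164, 1246 and 743 CPM in SOV_1 to SOV_4. It was 5691, 8178, 6376 and 6865 CPM in SUM_1 to SUM_4, and 3636, 2197, 2567 and 8309 CPM in FOV_1 to FOV_4. Every SUM library and every FOV library lay above every spring library. MiR-409-3p was lower in SOV than in SUM (log2 FC -2.99, SE 0.41, limma adjusted p = 0.000101) and lower in SAN than in SUM (-2.20, SE 0.41, adjusted p = 0.00344). It was also lower in SOV than in FOV (-2.09, SE 0.45, adjusted p = 0.0121), a call that ended with median-of-ratios scaling (adjusted p = 0.0648) and with these seasons fitted alone (0.132). SAN vs. FOV gave -1.30 (adjusted p = 0.189) and SUM vs. FOV 0.90 (adjusted p = 0.306), neither called. Without FOV_4 limma called SUM vs. FOV (log2 FC 1.5, adjusted p = 0.0290), and DESeq2 called SAN vs. FOV (adjusted p = 0.0294).

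MiR-323-3p was low in spring and much higher in SUM. In spring it had 121, 38.01, 218 and 110 CPM in SAN and 105, 215, 125 and 63.7 CPM in SOV. In SUM it had 892, 3224, 1033 and 1036 CPM, and in FOV_1 to FOV_4 548, 204, 491 and 1023 CPM. All SUM libraries were above all spring libraries, SUM_2 stood far above the other 3, and FOV overlapped with both. The log2 FC was -3.51 in SOV vs. SUM (SE 0.66, limma adjusted p = 0.00138) and -3.67 in SAN vs. SUM (SE 0.66, adjusted p = 0.00269).

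MiR-543 also had its highest season mean in SUM, but SUM vs. FOV was not called (log2 FC 0.42, SE 0.57, limma adjusted p = 0.466). It had 878, 418, 945 and 490 CPM in SAN, 157, 645, 852 and 255 CPM in SOV, 2161, 1819, 1389 and 1938 CPM in SUM, and 1224, 1087, 826 and 2712 CPM in FOV_1 to FOV_4. SUM lay above both spring seasons without overlap, and only SOV vs. SUM passed the test (log2 FC -2.22, SE 0.53, limma adjusted p = 0.00804). SAN vs. SUM gave -1.49 (SE 0.53, adjusted p = 0.0714), and was called by edgeR (adjusted p = 0.0340), by DESeq2 (0.0243) and by limma on these seasons alone (0.0356). MiR-495, which resembles miR-543 outside the seed, had 52.4, 53.7, 104 and 127.5 CPM in SOV and 625, 207, 178 and 340 CPM in SUM (log2 FC -1.91, SE 0.59, limma adjusted p = 0.0304). Its SAN libraries, at 133 to 368 CPM, overlapped with SUM, and the SOV vs. SUM call was lost without SOV_1, SOV_2, SUM_1 or SUM_4 (adjusted p up to 0.0938) and without both SUM_1 and SUM_4 (0.221).

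Both arms of the miR-485 hairpin were measured, and both were called in SOV vs. SUM. In rat neurons miR-485-5p is known to act on synaptic proteins. MiR-485-5p stood at 303, 76.0, 36.3 and 233 CPM in SAN, 105, 107, 125 and 42.5 CPM in SOV, and 495.7, 917, 570 and 672 CPM in SUM. In FOV_1 to FOV_4 it had 146, 90.6, 133.9 and 656.2 CPM, so that FOV_4 alone reached the summer range. Its log2 FC was -2.86 in SOV vs. SUM (SE 0.75, limma adjusted p = 0.0140) and -2.44 in SAN vs. SUM (SE 0.75, adjusted p = 0.0491), a value at the threshold that missed it when any library other than SAN_1, SOV_4 or FOV_4 was left out (adjusted p up to 0.118).

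MiR-485-3p had 0 to 60.6 CPM in SAN, 0 to 89.5 CPM in SOV and 149 to 392 CPM in SUM (SOV vs. SUM log2 FC -4.97, SE 1.59, limma adjusted p = 0.0355). This call ended without SOV_1, SOV_4, SUM_2, SUM_3 or SUM_4 (adjusted p up to 0.120). The 5′ arm made up 81.4% of the reads of both arms in SAN (exact 95% interval 66.6% to 91.6%), 72% in SOV (50.6% to 87.9%), 74.5% in SUM (69.0% to 79.4%) and 72.9% in FOV (63.4% to 81.0%). These intervals come from reads summed over a season's libraries and leave out the spread between libraries. They overlapped between seasons. In single libraries with reads of both arms, FOV_1 included, the 5′ arm had 1 to 8 times the level of the 3′ arm. Whether the arm share changed with the season was not tested. For miR-409 the 5′ arm was 0.279% to 0.904% of the reads of both arms in every season, and for miR-323 it was seen in 2 reads.

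MiR-3958 was low in spring, with 0, 57.0, 90.9 and 36.8 CPM in SAN and 0, 35.8, 145 and 0 CPM in SOV. It had 218, 562, 570 and 799 CPM in SUM (SOV vs. SUM log2 FC -5.83, SE 1.57, limma adjusted p = 0.0161), and FOV_1 to FOV_4 had 365, 340, 335 and 994 CPM. No spring library reached the lowest summer or fall one. Without SOV_1 or SOV_4, each of which had no read, the call was lost (adjusted p = 0.0599 and 0.0522), as it was with these seasons fitted alone (0.0787). SAN vs. SUM gave -4.52 in limma (SE 1.57, adjusted p = 0.0714), not called, whereas edgeR (-3.64, adjusted p = 0.0130) and DESeq2 (-3.49, adjusted p = 0.000831) called it.

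**Figure D3:**
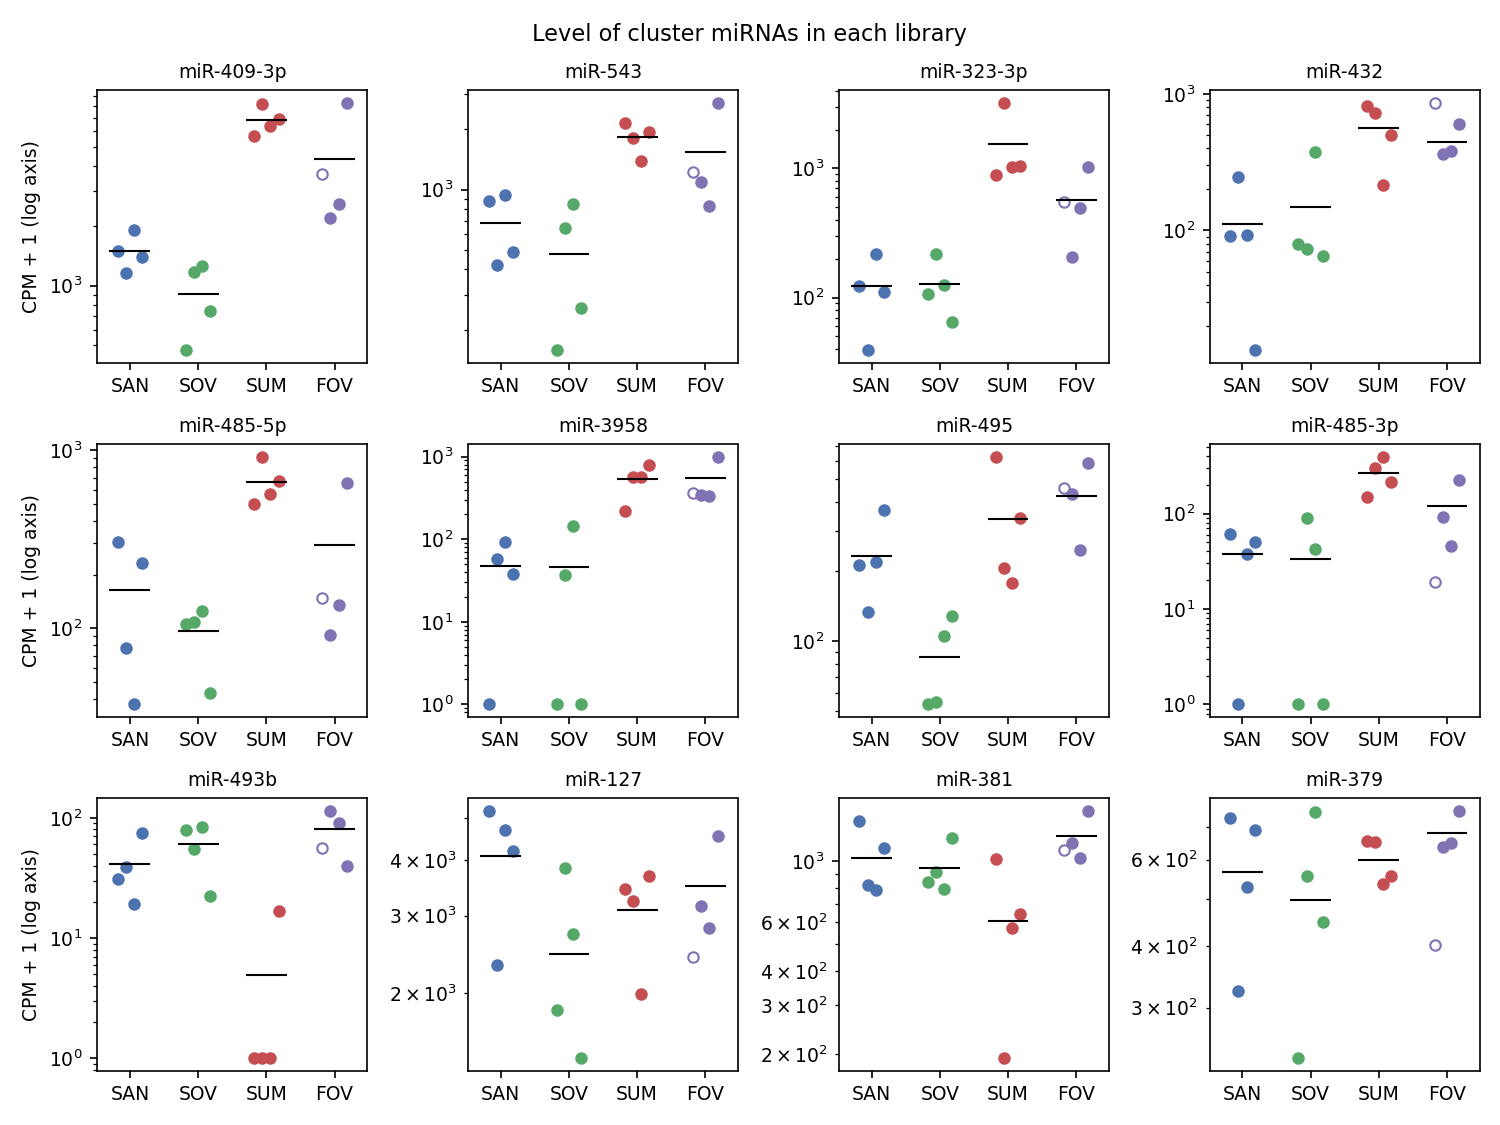
TMM-adjusted CPM plus 1 on a log10 axis for 12 members, each point 1 library, grouped by season on the horizontal axis, with FOV_1 hollow and left out of the line at the season mean. MiR-409-3p, miR-323-3p and miR-543 lie higher in all SUM libraries than in any spring library, miR-127 and miR-379 overlap across seasons, and miR-493b is at 0 in 3 of 4 SUM libraries.

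Members of the miR-127/miR-136 part differed among themselves, and so did those of the rest. In SAN vs. SUM the log2 FC ran from -2.79 to 4.17 in the part and from -4.52 to 3.08 in the rest. MiR-127, which is known for its pairing with Rtl1 in mouse, had 5177, 2319, 4689 and 4205 CPM in SAN, 1832, 3850, 2721 and 1423 CPM in SOV, 3440, 3239, 1995 and 3686 CPM in SUM, and 2412, 3148, 2812 and 4545 CPM in FOV_1 to FOV_4. All seasons overlapped, and no comparison of miR-127 was called (SOV vs. SUM log2 FC -0.40, SE 0.37, adjusted p = 0.491). MiR-370 also overlapped, with season means from 299.3 to 536 CPM and no call.

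MiR-432 was the one member of this part that limma called higher in SUM. It had 90.8, 247, 90.9 and 12.3 CPM in SAN and 813, 725, 214 and 498 CPM in SUM, and the 2 seasons overlapped through SAN_2 and SUM_3. The log2 FC in SAN vs. SUM was -2.79 (SE 0.82, limma adjusted p = 0.0475), and leaving out any of 10 single libraries, SAN_1, SAN_3, SAN_4, SOV_1, SOV_2, SUM_1, SUM_2, SUM_4, FOV_2 or FOV_3, ended the call (adjusted p up to 0.104). In SOV it had 78.5, 71.6, 374 and 63.7 CPM and in FOV_2 to FOV_4 362 to 598 CPM. MiR-433 and miR-136, neighbours of miR-127 in mammals, were low: miR-433 had season means of 21.3 CPM in SAN and 173 in SUM, and miR-136 of 53.5 in SAN and 13.6 in SUM, with overlapping libraries in SAN vs. SUM and no limma call in any comparison. EdgeR and DESeq2 called miR-433 higher in SUM than in SAN (log2 FC -3.20 and -2.97, adjusted p = 0.0346 and 0.0410).

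MiR-493b was the only member that limma called lower in SUM. By sign alone, 7 of 38 members were higher in SOV than in SUM and 29 lower (56.7% of all miRNAs were lower). In SAN vs. SUM 9 were higher in SAN and 27 lower (53.9% of all miRNAs were lower). The reads of miR-493b were few. It had 1, 2, 1 and 6 reads in SAN, 3, 3, 4 and 1 in SOV and 3, 5, 4 and 4 in FOV, but 0, 0, 0 and 2 in SUM, although SUM_1 and SUM_4, with 105466 and 110062 miRNA reads, were deeper than any spring library. As levels these were 18.2 to 73.6 CPM in SAN, 21.2 to 83.1 CPM in SOV, 38.6 to 113 CPM in FOV and 0 or 15.8 CPM in SUM, with SUM below every library of the other seasons. This lack of overlap rests on the scaling of very few reads, since SUM_4 had more reads than SAN_1, SAN_3 or SOV_4. SUM_3, at 0, was the shallowest library (27131 miRNA reads). There 1 read would have stood for 35.6 CPM, above the lowest spring libraries. The log2 FC was 4.72 in SOV vs. SUM (SE 1.23, limma adjusted p = 0.0136), 4.17 in SAN vs. SUM (SE 1.23, adjusted p = 0.0475) and -5.20 in SUM vs. FOV (SE 1.33, adjusted p = 0.0323). These fitted values depend on the added count of 1 CPM. Without the added count, summed reads were divided by the same library factors, so these ratios still depend on the scaling. The ratio was 9.39 for SOV to SUM (exact 95% counting interval 2.05 to 87.1, 11 against 2 reads) and 7.27 for SAN to SUM (1.55 to 68.2, 10 against 2 reads). For FOV to SUM it was 10.9 (2.47 to 99.5, 13 against 2 reads). The SOV vs. SUM call remained when any single library was left out, whereas the SAN vs. SUM call was lost for any library other than SOV_4, SUM_4 or FOV_4 (adjusted p up to 0.0982) and with edgeR (0.111) and DESeq2 (0.0862), and the SUM vs. FOV call was lost for SOV_3, SUM_1, SUM_2, SUM_3, FOV_2 or FOV_3 (adjusted p up to 0.154) and with edgeR and with these seasons fitted alone.

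The abundant members miR-381, miR-379, miR-411 and miR-494 of the rest were not called in any comparison by limma. MiR-381 had its lowest season mean in SUM, at 604 CPM and with SUM_2 at 192 CPM, against 1027 CPM (SAN), 938 CPM (SOV) and 1232 CPM (FOV). MiR-379, after which the larger hairpin group is often named, was nearly level, at 496 to 678 CPM. MiR-411 had 227 CPM in SUM and 726 in FOV, and miR-494 had means of 153.98 CPM (SAN), 173 CPM (SOV), 376 CPM (SUM) and 561 CPM (FOV). In SUM vs. FOV the libraries of miR-381 and miR-411, 2 of the 4 such members (10.5%, against 15.6% of all miRNAs), did not overlap, yet neither was called (adjusted p = 0.181 and 0.162).

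Against fall, few members passed the test. In SUM vs. FOV 1 of 38 was called (2.63%), against 3.55% of all miRNAs, namely miR-493b, whereas DESeq2 called miR-411, with no adjusted p for miR-493b, and edgeR none. In SOV vs. FOV 1 of 38 was called (2.63%), against 2.84% of all, namely miR-409-3p, while 7 members did not overlap (18.4%), against 18.8% of all. The median log2 FC was -2.005 over the members and -0.60 over all miRNAs, and -1.47 and -0.68 without FOV_4. Of the 38 members 36 had a negative log2 FC, against 66.7% of all miRNAs. MiR-154a, miR-431, miR-487a and miR-3959 passed the filter only through FOV, so the filter largely set their direction in every comparison with FOV. Signs and medians there thus hold members picked by their fall level, and neither was tested. In SUM vs. FOV the median was -0.76 over the members and -0.14 over all.

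In SAN vs. FOV limma called 0 of 38 members (0.709% of all miRNAs were called, 0.355% higher in SAN and 0.355% higher in FOV). The median log2 FC there was -1.39 over the members and -0.43 over all miRNAs, and -1.19 and -0.36 without FOV_4. DESeq2 called miR-323-3p, miR-3958 and miR-409-3p there, all higher in FOV, among 12 calls over all miRNAs, and edgeR called 0. In SAN vs. SOV limma called 0 of 38 (0% of all miRNAs), and edgeR and DESeq2 also called 0 members. Libraries did not overlap for 1 member (2.63%, against 2.13% of all miRNAs), miR-495.

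**Figure D4:**
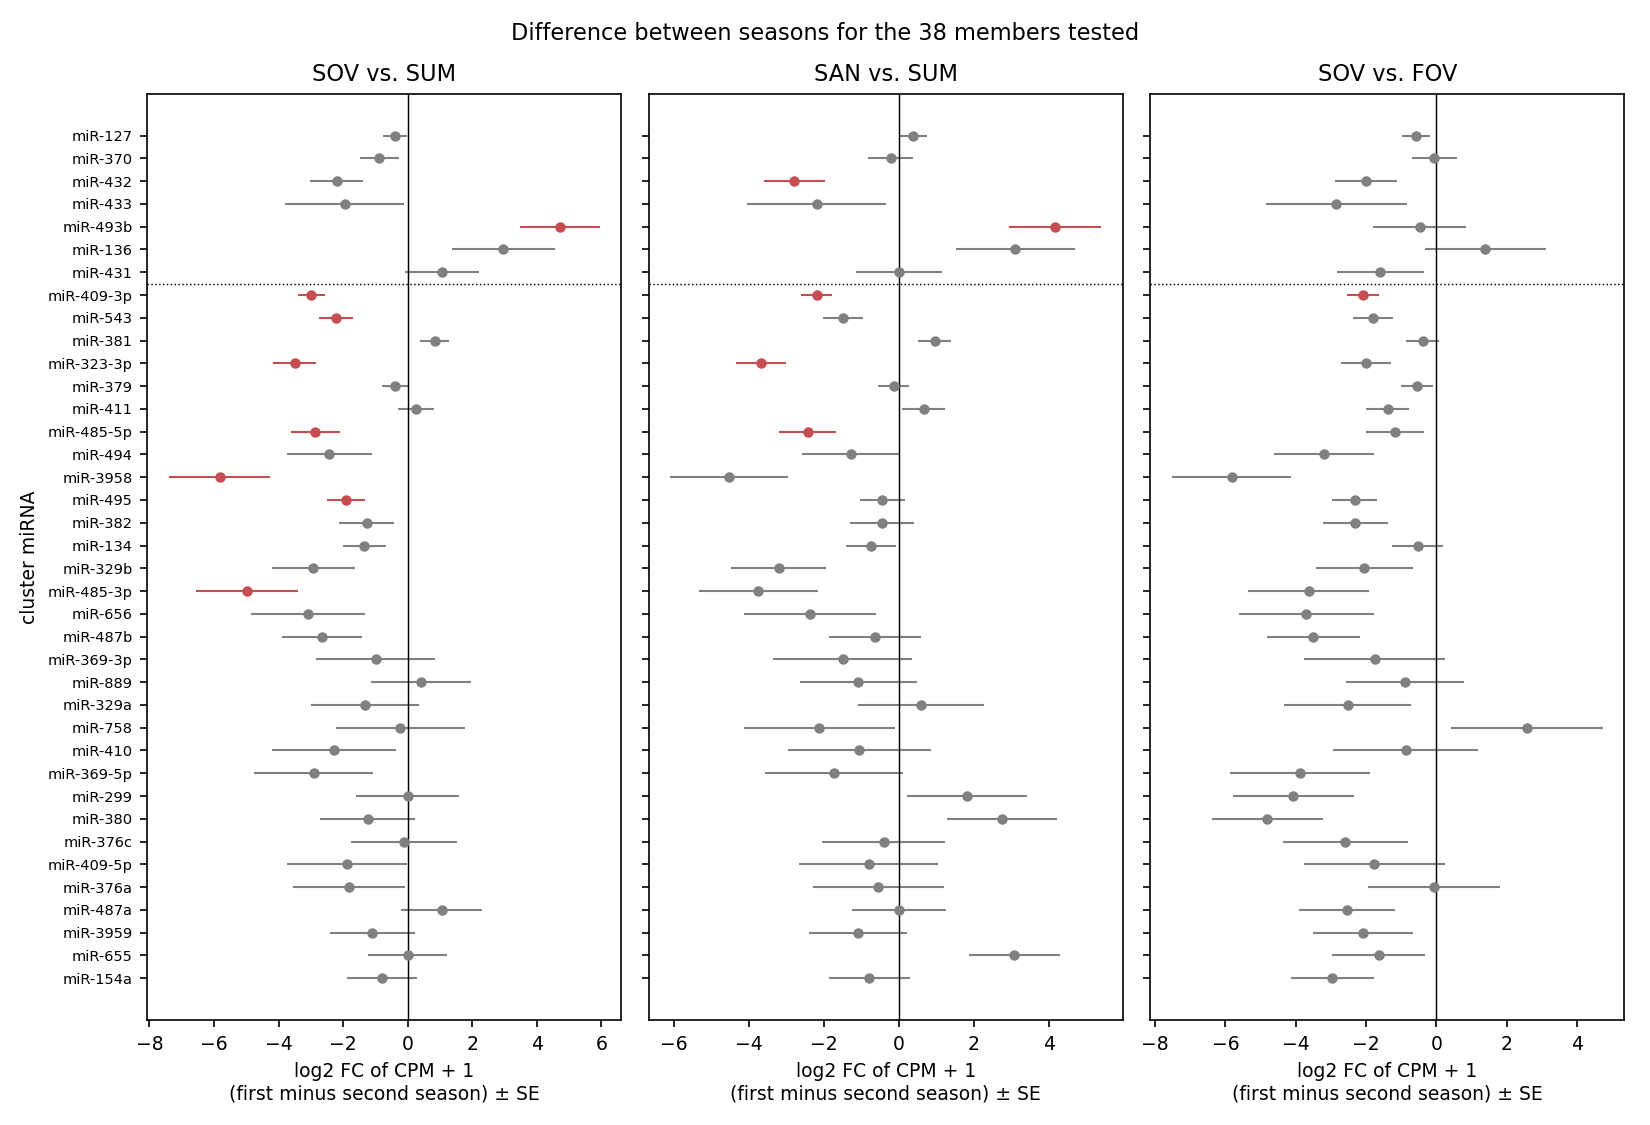
Log2 FC of the 38 tested members on log2(CPM + 1) in SOV vs. SUM, SAN vs. SUM and SOV vs. FOV (horizontal axes, bars 1 SE), 1 row per member, called members in red, with a dotted line between the 7 members of the miR-127/miR-136 part above and the 31 of the rest below. In SOV vs. SUM the 7 called members of the rest lie left of 0, and miR-493b lies to the right at 4.72.

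FOV_4, with 112146 reads the deepest library, also detected the most members (38).

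Markers of other cell types moved with part of these results. The summed level of 11 brain-enriched miRNAs, all of which had reads, was 10973 to 36513 CPM in SAN, 7216 to 30674 in SOV and 30591 to 36136 in FOV. In SUM it was 139196 and 100754 CPM in SUM_1 and SUM_4 but 19595 and 19091 CPM in SUM_2 and SUM_3. The summed level of the cluster was 20217 and 20635 CPM in the former pair and 22848 and 15280 CPM in the latter. One brain-enriched miRNA, miR-128, stood high in all 4 SUM libraries (17025 to 24107 CPM) and in FOV_4 (21722 CPM), above every spring library (1492 to 14794 CPM), and its part in the cluster's level was not tested. The other miRNAs of the list did not follow it in SUM_2 and SUM_3. There miR-9a had 177 and 249 CPM and miR-218 399 and 463 CPM, below every spring library. MiR-7 had 1153 and 1353 CPM, and miR-124, miR-137, miR-138, miR-129a-3p, miR-129b-3p, miR-153 and miR-219-5p were at 0. With SUM_1 and SUM_4 both left out, an alternative chosen after the data were seen, 7 members were called in SOV vs. SUM and 4 for SAN vs. SUM. Over all miRNAs the calls then numbered 50 and 33. Of the called members 2 each, miR-381 and miR-493b, were higher in spring. The calls of miR-409-3p and miR-323-3p held in both, those of miR-485-3p and miR-495 in SOV vs. SUM and of miR-432 and miR-485-5p in SAN vs. SUM were lost, and the members' medians moved as given above. A list of 4 erythrocyte miRNAs summed to 73542 CPM in SUM_2, the library with the highest miR-323-3p, against 6979 to 29105 CPM elsewhere, and its part in that value was not tested. Most of that sum was miR-486-5p (67154 CPM), with miR-486-3p at 1597 CPM. The list's miR-451 was not raised in SUM_2 (4791 CPM, up to 17432 CPM in other libraries), and miR-144 was at 0. MiR-122, the liver marker, was at 602 to 4663 CPM in spring and 7181 to 9450 CPM in SUM, and its part in the summer values was not tested.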

How the data were processed

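The authors deposited TMM-adjusted CPM, a signal obtained by dividing read counts by a library-specific factor. Per the paper's methods, reads were trimmed and annotated in CLC Genomics Workbench against miRBase and EquCab3.0, whereas the submitters' processing notes name bcl2fastq, Bowtie2 2.2.2 and DESeq2, and which applies was not settled. Divided by the smallest value of its library, each value came out whole (100% of values, tolerance 1e-06 reads), which gave the reads back. No 2 libraries were copies.

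One model of 15 libraries, without FOV_1 as in the study, was fitted in limma 3.58.1 (R 4.3.3) with an intensity trend, and figures were made in matplotlib 3.10.9 (Python 3.11.15). P values are two-sided, with Benjamini-Hochberg adjustment per comparison (6 in all). Recovered reads were tested with edgeR 4.0.16 and DESeq2 1.42.0 as alternatives, which called 9 and 9 members in SOV vs. SUM (56 and 58 over all miRNAs, against 50 with limma). The test was tried on simulated data.

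Named with values were the 4 marker miRNAs, the called members, the 12 members of highest mean and their other arms, and, chosen after their values were seen, miR-136, miR-433 and miR-329a, miR-329b, miR-655 and miR-656 for their sequence. Members and lists were chosen with earlier results of these data known. Mature sequences came from the study's supplementary tables. Libraries carry no molecular identifiers, so intervals cover counting error only. Muscle, leukocyte, endothelial and other imprinted miRNA lists summed to 1732 to 55527, 233 to 2280, 2222 to 11807 and 179 to 1126 CPM per library. The endothelial list was at 2222 to 6965 CPM in SUM, against 5652 to 9083 CPM in SAN and 8858 to 11807 CPM in SOV. MiR-483 of the imprinted list was at 506 to 1020 CPM in SUM and 0 to 333 CPM in spring. Their part in the results was not tested.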

Additional observations from a re-analysis of the deposited data

Results flagged for a closer look

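A group of 4 libraries was picked out where its highest or lowest value stood far from the other 3 (gap over range above Dixon's 95% critical value), which chance does for about 1 in 20 groups. Of 78 groups examined 9 were picked out.

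In SUM, miR-323-3p stood at 3224 CPM in SUM_2 and at 892 to 1036 CPM in the other libraries. In FOV, miR-3958 was at 994 CPM in FOV_4 against 335 to 365 CPM, miR-485-5p at 656.2 CPM in FOV_4 against 90.6 to 146 CPM, and the summed level of the members at 26808 CPM in FOV_4 against 12343 to 13301 CPM. FOV_4 was also the deepest library, and the part of depth in these values was not tested. In SOV, miR-432 was at 374 CPM in SOV_3 against 63.7 to 78.5 CPM.

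The other 4 rest on 1 or 2 reads. MiR-493b was at 15.8 CPM in SUM_4 and 0 in the other SUM libraries, miR-409-5p and miR-323-5p were each at 26.2 CPM in SOV_1 and 0 in the other SOV libraries, and miR-323-5p was at 7.91 CPM in SUM_4 and 0 in the other SUM libraries.

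FOV_1, which entered no comparison, held the members at a summed 13301 CPM, above the 54.8 CPM that a count of 0 allows (3 reads).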

How the results depend on the processing

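Square brackets after a count of called members give the calls over all miRNAs. In SOV vs. SUM the count of called members was within 1.5 times of 8 [50] under every alternative that kept all libraries, with 7 [50] under the replicate block. It ranged from 5 [32] (without SOV_1) to 9 [50 to 52] when single libraries were left out. MiR-409-3p and miR-323-3p kept their calls against SUM, from either spring season, under all 28 alternatives, as did miR-543 and miR-485-5p against SOV. For SAN vs. SUM (5 [27] called) the count was 3 [18] with a pseudocount of 0.25 CPM, 3 [18] with no filter, 3 [17] with the 2 seasons fitted alone and 3 [21] with the replicate block. It was 8 [44] with edgeR, 9 [58] with DESeq2, and 2 to 6 [10 to 27] with 1 library left out. In SUM vs. FOV (1 [10] called) it was 0 [10] with a filter of 100 CPM, 0 [5] with these seasons alone, 0 [7] with the replicate block and 0 [10] with edgeR. It was 2 [34] without SUM_1 and SUM_4 (chosen after seeing the data) and 0 to 2 [4 to 19] with 1 library left out. In SOV vs. FOV (1 [8] called) it was 3 [11] with FOV_1 kept, 3 [13] with a pseudocount of 5 CPM, 2 [9] with no filter and 2 [11] with a filter of 100 CPM. It was 0 [3] with median-of-ratios scaling, 1 [4] with these seasons alone (miR-380 in place of miR-409-3p) and 2 [12] with equal totals. It was 2 [8] with edgeR, 3 [20] with DESeq2, 2 [10] without SUM_1 and SUM_4, and 1 to 3 [6 to 15] with 1 library left out. In SAN vs. FOV (0 [2] called) DESeq2 gave 3 [12]. The causes were not tested.

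The share of the miR-127/miR-136 part without the most abundant member of each part was 14.9% (SAN), 15.1% (SOV), 12.6% (SUM) and 11.3% (FOV), and the summed level in SUM without miR-409-3p was 12967 CPM, by construction. With 1 library left out the share ranged from 44.1% to 46.6% (SAN), 38.3% to 44.1% (SOV), 20.4% to 23.6% (SUM) and 25.6% to 30.6% (FOV), and the summed level from 9749 to 11864.5 CPM (SAN), 6603 to 8189 CPM (SOV), 18710.5 to 21233 CPM (SUM) and 12581 to 19813 CPM (FOV). The log2 FC of miR-323-3p in SAN vs. SOV, -0.17 and not called, ranged from -0.53 to 0.30 with 1 library left out, above 0 without SAN_2 (0.30) or SOV_2 (0.13).

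Median-of-ratios scaling moved the median log2 FC of all miRNAs in SOV vs. SUM from -0.51 to -0.28 and that of the members from -1.30 to -1.10, and that of all miRNAs in SOV vs. FOV from -0.60 to -0.29. The members' median in SOV vs. SUM was -0.85 with DESeq2 and -2.21 with a filter of 100 CPM, and in SAN vs. SUM -1.40 with edgeR and -1.49 with that filter. Replicate numbers were shared between seasons, but same-numbered libraries did not deviate together (21 pairs, r from -0.27 to 0.27, median 0.01, and 4 of 15 libraries correlated best with their own number), so the numbers were not taken to pair the libraries. Depth limits the low members: at 7.91 to 35.6 CPM per read, differences in the 8 members with fewer than 10 reads were not detectable.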
